A study of Homo sapiens with 6 samples.

Results

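Sense intronic genes are annotated non-coding genes that lie inside an intron of a protein-coding gene and are read from the same strand, and sense overlapping genes are non-coding genes that share a stretch of the same strand with a coding gene. All rows of the deposited table in these 2 biotype classes with at least 1 count in any library were taken, which gave 728 of 58735 genes: 602 sense intronic and 126 sense overlapping genes. Each was matched by coordinates to the shortest protein-coding gene that contains it on the same strand, called its host here. The libraries were made from LN229, an established human glioblastoma cell line. 3 libraries carry the genotype HSD52 overexpression (HSD52_OE), HSD52 being a long non-coding RNA gene, and 3 carry the genotype WT and the title control. The vector and promoter behind the overexpression, and whether control cells received an empty vector, are not given in the labels. Nor is it stated whether replicates are separate cultures, so a p-value here measures how far these libraries spread, and that spread may be technical.

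A coding gene is transcribed as a long precursor whose introns are removed and, for the most part, degraded in the nucleus, while the joined exons leave as messenger RNA. Non-coding transcripts have been catalogued inside many introns. Some are made from promoters of their own and some are pieces of the precursor that were cloned or sequenced, and a gene model alone does not tell these apart. Several of the genes named here carry the suffix IT (intronic transcript) after the symbol of the host. RNA for the libraries was captured by its poly-A tail on poly-T beads and then primed at random positions. Reads of a separate transcript and reads of unspliced host precursor over the same bases cannot be told apart in these counts, and no strand setting for the counting is given in the sources used here, so members that overlap other genes are uncertain.

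6 transcripts that the results below turn on are shown to make these gene models concrete: the start of each annotated RNA, 5′ to 3′, read from the GENCODE release 29 transcripts (GRCh38), with at most 150 bases each. Capitals mark runs of at least 6 A or 6 T. ANKRD10-IT1 and AC008115.3 were among the members that rose most clearly, AC135050.6 was among the most abundant, AC008982.2 rose inside a host that was not called, AC006538.1 fell, and AL356740.3 fell behind its host.
ANKRD10-IT1, chr13:110899056-110899172, minus strand: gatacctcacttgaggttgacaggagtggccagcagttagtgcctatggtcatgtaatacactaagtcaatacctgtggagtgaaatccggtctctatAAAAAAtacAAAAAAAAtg
AC008115.3, chr12:12718973-12719122, plus strand: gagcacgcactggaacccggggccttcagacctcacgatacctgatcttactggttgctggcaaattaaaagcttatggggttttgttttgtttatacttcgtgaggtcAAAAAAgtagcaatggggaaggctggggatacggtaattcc
AC135050.6, chr16:31122235-31122384, plus strand: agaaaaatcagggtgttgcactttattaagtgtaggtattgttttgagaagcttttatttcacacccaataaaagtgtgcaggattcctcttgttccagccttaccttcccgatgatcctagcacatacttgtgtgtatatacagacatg
AC008982.2, chr19:38845350-38845499, minus strand: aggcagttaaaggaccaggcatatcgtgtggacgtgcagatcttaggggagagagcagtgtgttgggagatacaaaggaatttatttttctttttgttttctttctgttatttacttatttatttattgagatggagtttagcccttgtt
AC006538.1, chr19:2729178-2729327, minus strand: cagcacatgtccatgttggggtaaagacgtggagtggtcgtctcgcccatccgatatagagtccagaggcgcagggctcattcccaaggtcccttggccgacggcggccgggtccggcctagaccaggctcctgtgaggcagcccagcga
AL356740.3, chr13:113009671-113009820, plus strand: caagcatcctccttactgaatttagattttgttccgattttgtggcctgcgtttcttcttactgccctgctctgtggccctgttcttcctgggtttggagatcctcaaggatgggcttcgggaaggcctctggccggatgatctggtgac

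A run of 6 or more A occurred in the first 150 bases of 6.45% of tested members, against 5.24% of tested antisense genes, 4.77% of tested lincRNA genes and 3.32% of tested protein-coding genes. A run of 6 or more T occurred in 14.2% of tested members, against 6.11%, 7.71% and 4.1% of those classes. Over all members with that length, tested or not, the shares were 10.3% for A and 16% for T. Among tested members, A runs occurred in 10% of the 70 called higher in HSD52_OE cells and in 3.53% of the 85 that were not, and T runs in 10% and 17.6%. The part of these runs in the results below was not tested. The median GC content of the member transcripts was 43.33%, against 49.56% for antisense, 48.03% for lincRNA and 48.09% for coding transcripts. The letters AATAAA, the best-known polyadenylation signal, stood in the last 50 bases of 51% of tested members. The share was 41.8% for tested antisense, 45.7% for tested lincRNA and 62.7% for tested coding transcripts. Among the tested members it was 50% in those called higher and 51.8% in the others.

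The members were short and weakly counted. The median exonic length was 577.5 bases for sense intronic genes (151 to 5984) and 1363 bases for sense overlapping genes (97 to 31629). A single block of exon made up 306 of the 602 sense intronic and 53 of the 126 sense overlapping genes. A coding gene contained 568 of the sense intronic genes on the same strand, 553 of them with no base shared with a host exon, and 541 lay whole inside 1 intron. A further 5 had a containing coding gene on the opposite strand only, 5 overlapped a coding gene in part, 1 overlapped one on the opposite strand and 23 overlapped none. Of the sense overlapping genes 25 were contained, 13 themselves contained a coding gene, 32 overlapped one in part, 2 were contained and 1 overlapped on the opposite strand only, and 53 overlapped no coding gene. The 593 contained members had 524 distinct hosts, and 56 hosts held at least 2 members. CCDC92 held 6.

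The members were chosen by their counts, so their detection is given as a description. A further 346 genes of these classes had no count in any library and lay outside the rule, and the members nearest to them were 73 genes with exactly 1 count over all 6 libraries. Under 10 counts in all were held by 322 members and 100 or more by 95. The 3 control libraries held counts for 395, 443 and 431 members and the 3 HSD52_OE libraries for 554, 551 and 542. Counts appeared in HSD52_OE libraries only for 141 members and in control libraries only for 39. Over the whole table the number of genes with a count also differed, from 22855 to 23545 in control and from 26359 to 26755 in HSD52_OE libraries, at totals of 17777157 to 18917790 counts per library. For all genes, the share with counts in 1 group only was not taken, so the 141 and 39 have no background here.

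HSD52 itself, the check of the labels, had 11, 7 and 12 counts in control and 1252, 1336 and 1327 counts in HSD52_OE libraries. The glioblastoma markers listed (VIM, NES, CD44, EGFR, SOX2, GFAP, OLIG2 and S100B) were all counted, GFAP at the low level of 4.83 CPM (counts scaled to a common library size, with libraries adjusted by the trimmed mean of M values) in control cells. Of markers of other cell types, CD3E (T cells) and CDH1 (epithelium) were at 0 in all libraries, and EPCAM (epithelium) held 1 count in all. KRT18, a keratin listed as epithelial, was called higher, at 99.0 CPM in control cells against 124.7 CPM. The endothelial gene PECAM1 (0.910 CPM in control) and the neuronal gene SNAP25 (15.3 CPM) were called lower, with log2 fold changes of -2.34 and -1.31. The summed leukocyte list ranged from 0.777 to 1.11 CPM in control and from 0.753 to 2.13 CPM in HSD52_OE libraries, the endothelial list from 1.46 to 2.22 and from 0.780 to 1.45, and the neuronal list from 28.5 to 33.9 and from 23.1 to 24.9. The part of these markers in the members' results was not tested. The control libraries were less alike than the others: the chi-square per degree of freedom was 15.1 to 18.6 for pairs of control libraries and 2.23 to 3.51 for pairs of HSD52_OE libraries.

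Summed over all 602 genes, sense intronic RNA was more abundant in HSD52_OE cells. The sum was 208.3, 236.9 and 212 CPM in control libraries and 387.8, 372.5 and 353.1 CPM in HSD52_OE libraries. The groups did not overlap, and the means were 219.1 ± 15.6 and 371.1 ± 17.4 CPM (SD, n = 3), a ratio of 1.69. The 126 sense overlapping genes summed to 116, 123.6 and 126.2 CPM in control and 164.3, 163.9 and 156.9 CPM in HSD52_OE libraries, a ratio of 1.33. The sum over the 501 hosts of sense intronic genes went the other way, at 0.897 times that of control cells. A sum is weighted to the most abundant genes. Gene by gene, the 483 tested hosts of all members had a median log2 fold change of -0.03. Of these hosts 24.4% were called higher and 31.3% lower, against 21.4% and 30.1% of coding genes. The 568 sense intronic members with a host had 5.06, 6.18 and 5.66 counts per 1000 host counts in control and 11.44, 11.03 and 10.28 in HSD52_OE libraries, a ratio of 1.94. Leaving out GABPB1-IT1, the most abundant member, the ratio for members with a host was 1.81 in place of 1.74. In bulk RNA, a change in the number of cells that make a transcript and a change in the amount per cell cannot be told apart.

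**Figure D1:**
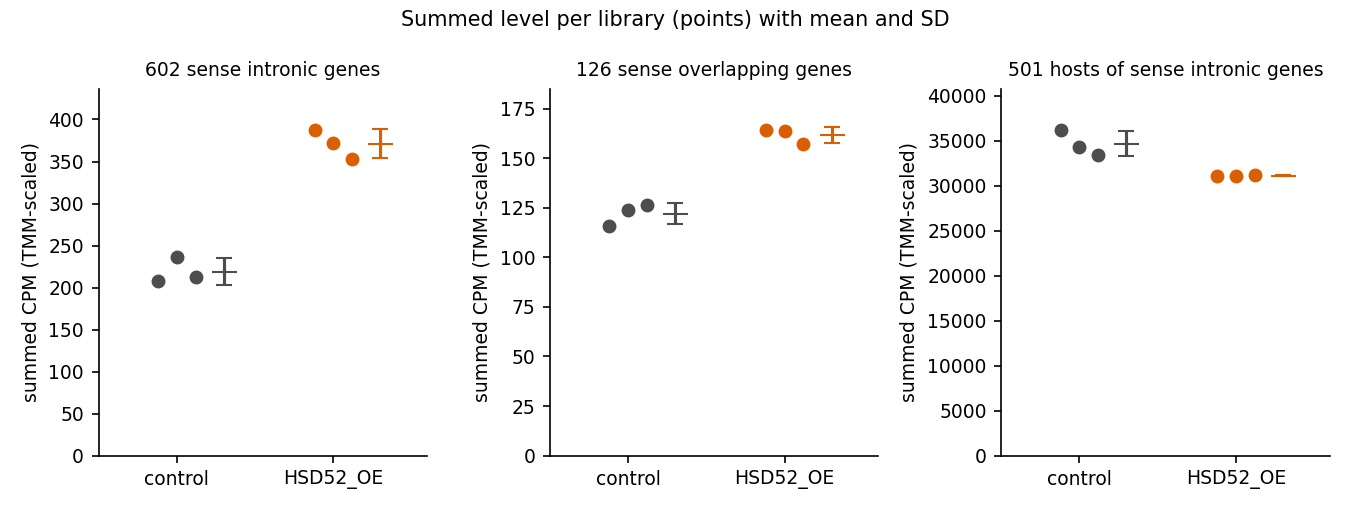
Summed level in CPM (vertical axis, starting at 0) of the 602 sense intronic genes, the 126 sense overlapping genes and the 501 hosts of sense intronic genes; points are libraries, and the bar beside them is the mean with its SD (n = 3). Both member classes sit higher in all 3 HSD52_OE libraries than in any control library, while the sum of the hosts sits lower.

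Long non-coding RNAs listed as signs of nuclear RNA were set beside these sums. Of the 7 (MALAT1, NEAT1, KCNQ1OT1, MEG3, TUG1, OIP5-AS1 and NORAD), 5 rose, OIP5-AS1 fell and MEG3 was at 0. NORAD, which is known as largely cytoplasmic, made up much of the control sum. Their summed level ranged from 900.4 to 989.9 CPM in control and from 1648 to 1893 CPM in HSD52_OE libraries. MALAT1, the classical nuclear RNA, went from 62.9 ± 13.2 to 339.9 ± 76.7 CPM and NEAT1, the RNA of paraspeckles, from 97.6 ± 4.36 to 363.2 ± 54.8 CPM (SD, n = 3), and NORAD from 530.8 ± 41.7 to 726.7 ± 7.78 CPM. The part that nuclear RNA has in the members' values was not tested.

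Of the members, 155 passed the filter on low counts (117 sense intronic, 38 sense overlapping) and 573 did not. 81 of those that passed had at least 10 counts in each control library, whereas 63 reached 10 counts in every HSD52_OE library but not in every control library, and 1 the reverse. The shares below cover the members that passed, which needed 10 counts, scaled to depth, in 3 libraries. A member high in HSD52_OE cells alone could thus pass. In edgeR (quasi-likelihood test, p-values adjusted by Benjamini-Hochberg over the 16322 genes that passed), 58 sense intronic members rose (49.6%) and 2 fell. Of all genes tested 25% rose and 25.6% fell, and of protein-coding genes 21.4% and 30.1%. A change of at least 2-fold was reached upward by 49 and downward by 1 of the 117 sense intronic members. Of all genes 10.5% did so upward and 3.49% downward. Among genes with a mean level of up to 2.18 CPM, the third quartile of the tested members, 1120 of 3358 did so upward and 155 downward. With no filter beyond 1 count, 86 of 602 sense intronic members rose (14.3%) and 3 fell (0.498%), against 13.3% and 14% of all genes. The share that rose was then close to that of all genes. With the filter on low counts, the median log2 fold change of the sense intronic members was 0.75, with 103 of 117 above 0, while the median over all genes was 0.01. Of the sense overlapping members 12 of 38 rose (31.6%) and 3 fell, and the median was 0.29. Groups did not overlap in 82 members with higher values in HSD52_OE and in 8 with lower values, out of 155, where 29.6% of all genes did so upward and 29.3% downward.

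Weakly expressed genes as a whole also rose more often. Among genes with a mean level of up to 2.18 CPM, the third quartile of the tested members, 37.7% rose and 5.9% fell, and among coding genes in that range 33.2% rose and 9.33% fell. Of the tested members with a mean of under 20 counts, 33 of 76 rose (43.4%), against 37.7% of all tested genes under that mean. Of members with a mean of 20 to 100 counts, 28 of 60 rose (46.7%) and 3 fell, against 35.5% of all genes in that range. Other classes of non-coding genes gave shares of like size: 43.8% of 916 antisense genes, 41.4% of 818 lincRNA genes and 44.9% of 127 TEC genes (models awaiting experimental evidence) rose. Processed pseudogenes, copies of messenger RNA set back into the genome, rose in 16.8% of 423. No test of a difference between these classes was made.

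The member with the smallest p was ANKRD10-IT1 (ENSG00000229152; GRCh38 chr13:110894639-110899172, minus strand), whose start is shown above and which lies inside an intron of ANKRD10, a gene for an ankyrin-repeat protein. It had 26, 60 and 50 counts in control and 270, 281 and 267 counts in HSD52_OE libraries. Every HSD52_OE library stood above every control library. Control cells had a mean level of 2.57 ± 0.965 CPM and HSD52_OE cells 14.2 ± 0.587 CPM (SD, n = 3), a log2 fold change of 2.46 ± 0.20 (SE, edgeR adjusted p = 2.04e-07).

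AC008115.3 (ENSG00000275560; chr12:12718973-12719521, plus strand) lies in the last of 4 introns of CDKN1B, which encodes the cyclin-dependent kinase inhibitor p27. It had 3, 7 and 4 counts in control and 54, 49 and 46 in HSD52_OE libraries, a log2 fold change of 3.26 ± 0.36 (edgeR adjusted p = 3.91e-06). The highest control value was far below the lowest HSD52_OE value. DLEU2L (ENSG00000116652; chr1:63547082-63550636, plus strand), inside EFCAB7, went from 1, 6 and 8 counts to 66, 83 and 48. That row is uncertain: it overlaps 6 other genes besides its host, shares 342 bases with a host exon and resembles DLEU2.

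2 members of mid to high level rose with little spread. AC135050.6 (ENSG00000278133; chr16:31122235-31124064, plus strand), inside intron 4 of KAT8, the gene of a histone H4 acetyltransferase, had 104, 110 and 129 counts in control and 295, 269 and 265 in HSD52_OE libraries. Its log2 fold change was 1.15 ± 0.14 (edgeR adjusted p = 6.52e-06). AP000866.6 (ENSG00000279342; chr11:124789240-124792818, minus strand), in the first intron of MSANTD2, had 18, 18 and 13 counts in control and 63, 60 and 68 in HSD52_OE libraries, a log2 fold change of 1.83 ± 0.26. In both genes the groups were apart. AP000866.6 overlaps 1 gene besides its host, so its counts are uncertain. Z83843.1 (ENSG00000271533; chrX:74209976-74213660, minus strand), annotated as sense intronic although it overlaps no coding gene, rose from 7, 17 and 12 to 82, 78 and 88 counts. It overlaps 1 other gene, which makes its counts uncertain.

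Among sense overlapping genes, SNHG20 (ENSG00000234912; chr17:77086716-77099902, plus strand), a small nucleolar RNA host gene, was among those with the smallest p. It had 118, 137 and 121 counts in control and 273, 263 and 289 in HSD52_OE libraries, a log2 fold change of 1.01 ± 0.13 (edgeR adjusted p = 1.36e-05). The gene overlaps 3 others, so its counts are uncertain. AL132989.1 (ENSG00000258682; chr14:58264662-58269681, plus strand), contained in PSMA3, the gene of an alpha subunit of the proteasome core, rose from 7, 14 and 7 to 74, 65 and 47 counts. It overlaps 1 gene besides its host, so its counts are uncertain too. AC010168.2 (ENSG00000261324; chr12:14762504-14767931, minus strand) rose from 5, 7 and 8 to 69, 41 and 63 counts, and AC007066.2 (ENSG00000261094; chr9:122937623-122940333, plus strand) from 18, 21 and 10 to 63, 74 and 65 counts. AL031985.3 (ENSG00000260920; chr1:40464319-40466767, plus strand) had 47, 46 and 54 counts in control and 126, 133 and 115 in HSD52_OE libraries. The last 3 overlap no coding gene, and in each the lowest HSD52_OE level exceeded the highest control level.

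The 6 most abundant members include AC135050.6 and SNHG20, described above. GABPB1-IT1 (ENSG00000285410; chr15:50348936-50354861, minus strand) fills much of the space just inside the start of GABPB1, the gene of the beta subunit of an ETS-family transcription factor. It had 537, 623 and 571 counts in control and 955, 828 and 907 in HSD52_OE libraries, with means of 32.8 ± 2.28 and 46.8 ± 4.22 CPM (SD, n = 3) and a log2 fold change of 0.51 ± 0.10 (edgeR adjusted p = 0.000468). SOX2-OT (ENSG00000242808; chr3:180989762-181836880, plus strand), a long multi-exon RNA whose intron holds the stem-cell factor gene SOX2, had 167, 147 and 224 counts in control and 332, 373 and 357 in HSD52_OE libraries (log2 fold change 0.86 ± 0.14). SOX2 rose by a log2 fold change of 0.34 ± 0.08. Because SOX2-OT overlaps 14 other genes, its counts are uncertain.

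AC092718.4 (ENSG00000261061; chr16:81030770-81031485, plus strand), in the last intron of the centromere gene CENPN, had 228, 229 and 209 counts in control and 309, 294 and 300 in HSD52_OE libraries. The log2 fold change of 0.31 ± 0.12 had an edgeR adjusted p of 0.0337, and that call was lost without control replicate 3 and without each of the 3 HSD52_OE libraries in turn, as well as with DESeq2 and with no filter beyond 1 count, with adjusted p from 0.00546 to 0.151 over all alternatives run. AC025171.1 (ENSG00000177738; chr5:43014414-43067419, minus strand), which contains a coding gene, was not called: it had 182, 171 and 202 counts in control and 164, 185 and 198 in HSD52_OE libraries. AC092718.4 overlaps 1 gene besides its host and AC025171.1 overlaps 6 genes, so the counts of both are uncertain.

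Only 5 tested members fell. MIR600HG (ENSG00000236901; chr9:123109494-123115477, minus strand), a microRNA host gene that overlaps a coding gene in part, had 130, 135 and 124 counts in control and 75, 67 and 92 in HSD52_OE libraries, a log2 fold change of -0.86 ± 0.17 (edgeR adjusted p = 0.000566). MIR31HG (ENSG00000171889; chr9:21455642-21559669, minus strand), the host gene of the microRNA miR-31, had 29, 43 and 38 counts in control and 25, 15 and 17 in HSD52_OE libraries (-1.06 ± 0.30). AC006538.1 (ENSG00000261342; chr19:2727743-2729327, minus strand) had 36, 50 and 37 counts in control and 17, 17 and 25 in HSD52_OE libraries (-1.18 ± 0.28). Its annotated host, AC006538.2, held 2 counts in all 6 libraries together. The groups were apart in all of these. MIR600HG overlaps 2 other genes and MIR31HG overlaps 4, so their counts are uncertain.

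AL731577.2 (ENSG00000249456; chr10:124917143-124942881, plus strand) had 65, 45 and 58 counts in control and 27, 33 and 23 in HSD52_OE libraries (log2 fold change -1.14 ± 0.25), and it shares 425 bases with coding exons. AC004656.1 (ENSG00000260822; chrX:24545516-24550466, plus strand) had 188, 194 and 225 counts in control and 170, 175 and 144 in HSD52_OE libraries. Its log2 fold change of -0.43 ± 0.14 had an edgeR adjusted p of 0.0161, which became 0.0897 without HSD52_OE replicate 3 and 0.0828 with library totals as the only scaling, within a range of 0.00796 to 0.0897 over all alternatives run.

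**Figure D2:**
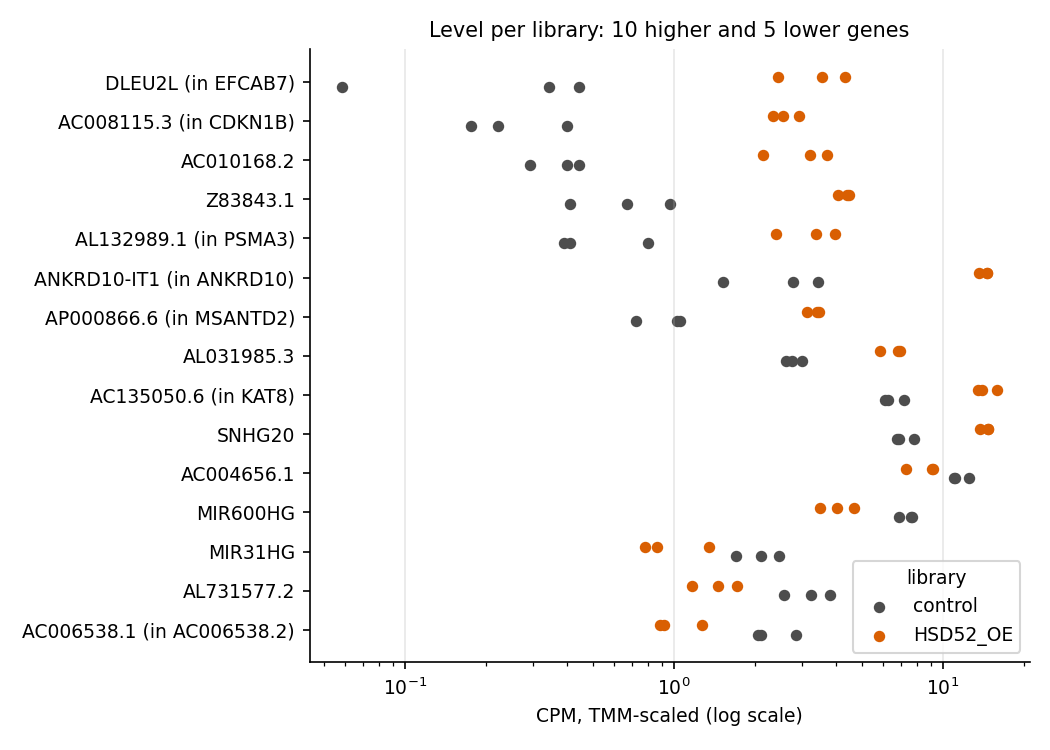
Level in CPM (horizontal axis, log scale) of the 10 members that rose and the 5 that fell with the smallest p; grey points are the 3 control and orange points the 3 HSD52_OE libraries, and hosts are given in brackets. The 2 groups of points are apart in each row, from 26, 60 and 50 against 270, 281 and 267 counts in ANKRD10-IT1 to 188, 194 and 225 against 170, 175 and 144 counts in AC004656.1.

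Members named as intronic transcripts of their host numbered 71, of which 11 passed the filter on low counts. Of these 11, 8 were called higher and 0 lower, and the median log2 fold change was 1.71. Of all genes tested 25% were called higher, with 37.7% of those under a mean of 20 counts and 23.3% of those at 20 or more. The 11 members lay on both sides of that mean. Of the 11, 5 reached 10 counts in every HSD52_OE but not in every control library. WWTR1-IT1, inside the gene of the transcriptional coactivator TAZ, went from 0, 1 and 2 counts to 12, 16 and 16. FMR1-IT1, inside the fragile X gene FMR1, went from 1, 3 and 1 counts to 11, 15 and 12. These are low counts, and the hosts WWTR1 and FMR1 were not called, with log2 fold changes of 0.12 ± 0.10 and 0.14 ± 0.09. SOS1-IT1, ALMS1-IT1 and BACH1-IT1 did not pass the test, with log2 fold changes of 0.40, 0.73 and 0.61.

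Position within the host and exon structure were compared as counts. In the first intron of a host, 9 of 15 tested members rose (60%), and in later introns 41 of 84 rose (48.8%). Members with a single block of exon rose in 43 of 105 and those with several blocks in 27 of 50. By chromosome, among those with at least 5 tested members, the count that rose ran from 0 of 5 on chromosome 18 to 4 of 5 on chromosome 11, where 25.2% and 23.4% of all genes tested rose. The most tested members were on chromosomes 12 and 19, with 9 and 6 of 15 higher, against 33.4% and 18% of all genes there. None of these splits was tested.

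The comparison of each member with its host asked whether the transcript changed by another factor than the coding gene around it. A member and its host, both past the filter, formed 103 pairs with 93 distinct hosts. Each pair was tested with edgeR's quasi-likelihood test for an interaction of gene and group, adjusted over all 279 non-coding genes of any biotype that lie in a coding host. Relative to the host, 55 members rose (53.4%) and 3 fell, against 49.1% higher and 5.02% lower of all 279 contained genes. With no filter beyond 1 count, 42 of 580 pairs were higher (7.24%), against 4.19% of all 2387 contained genes. The median log2 change against the host was 0.93, a factor of 1.90, with 85 of 103 above 0. Over all 279 contained genes the median was 0.83. With no filter beyond 1 count the medians were 1.02 for members and 1.28 for all contained genes. Many of the 103 members reached 10 counts in every HSD52_OE but not in every control library, as counted by level further below. Passing the filter in that way favours members that are higher in HSD52_OE cells. Pairs that share a host are not independent of each other.

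The hosts themselves were called in both directions at about the background rate. Of the 93 hosts, 26 rose (28%) and 24 fell (25.8%), and their median change was 0.04 on the log2 scale. Across the pairs member changes had quartiles of 0.40 and 1.90 and host changes of -0.23 and 0.30. The correlation of member and host change across the 103 pairs was weak, with Pearson's r = 0.16 and a Spearman rank coefficient of 0.10, given as a description since all pairs share the same 6 libraries. A member and its host rose together in 19 of the 31 pairs with a host called higher. The member alone was called higher in 23 of the 47 pairs with a host not called. It rose while the host fell in 14 of the 25 pairs with a host called lower. These counts were not taken over all contained genes, so they have no background here. Whether the calls of member and host depend on each other was not tested. No member of a pair was called lower by itself.

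**Figure D3:**
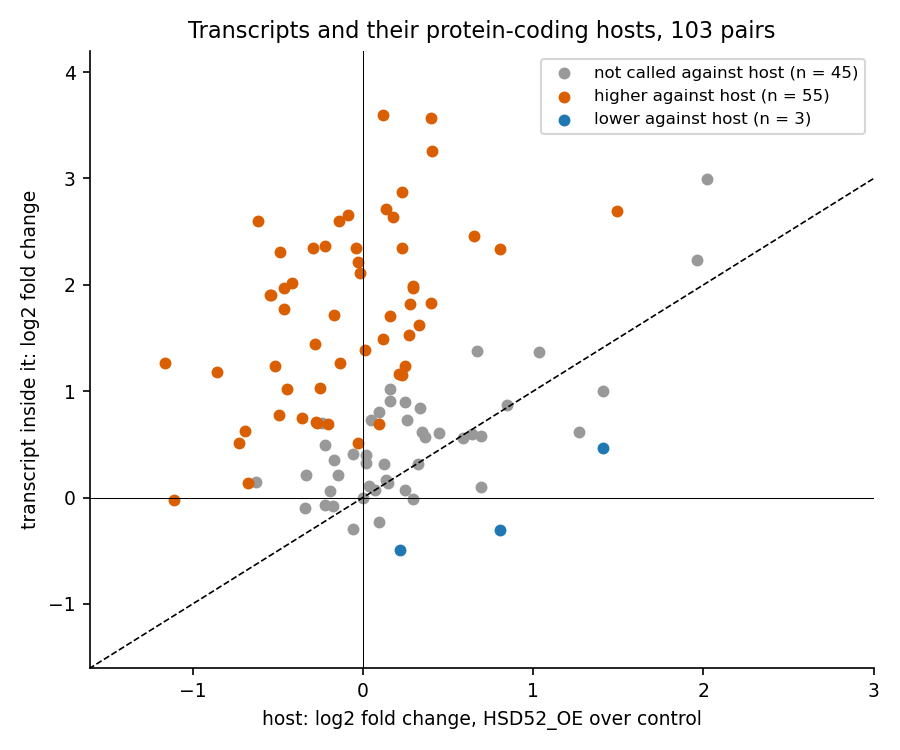
Log2 fold change (HSD52_OE over control) of each transcript (vertical axis) and of its protein-coding host (horizontal axis) in 103 pairs; orange marks members higher against the host (n = 55), blue lower (n = 3), grey not called, and the dashed line marks equal change. Most points lie above the dashed line, and host changes have quartiles of -0.23 and 0.30.

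The change against the host differed in size with the call of the host, which shares its counts with that change. Where the host fell, 22 of 25 members were higher against it and all 25 differences were above 0, with a median of 1.46. Where the host was not called, 21 of 47 were higher and 1 lower, with a median of 0.69. Where the host rose, 12 of 31 were higher and 2 lower, with a median of 0.34.

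AL121832.3 (ENSG00000275437; chr20:62402236-62405935, minus strand) and its host moved in opposite directions. It lies in the first intron of CABLES2, a gene related to regulators of cyclin-dependent kinases, and had 16, 12 and 5 counts in control and 26, 35 and 26 in HSD52_OE libraries. CABLES2 had 510, 572 and 568 counts in control and 245, 284 and 276 in HSD52_OE libraries. The groups were apart in both genes. The host fell by 1.16 on the log2 scale, and the difference between member and host was 2.42 ± 0.37 (edgeR adjusted p = 8.06e-07). The member's own call was lost without control replicate 3 (edgeR adjusted p = 0.0536) and without HSD52_OE replicate 2 (0.0619), over a range of 0.00438 to 0.0619, while the pair kept its call there.

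AC253536.3 (ENSG00000232545; chr22:24101689-24103354, plus strand), inside CABIN1, a gene for a calcineurin-binding protein, had 1, 8 and 5 counts in control and 22, 24 and 31 in HSD52_OE libraries. CABIN1 fell by 0.49 and the log2 difference was 2.79 ± 0.44 (edgeR adjusted p = 1.34e-06). AC090181.2 (ENSG00000269951; chr15:77067654-77068325, minus strand), in intron 3 of the tetraspanin gene TSPAN3, went from 5, 3 and 6 to 25, 25 and 29 counts. The lowest HSD52_OE count was thus above the highest control count in both. TSPAN3 fell by 0.29, a call lost with library totals as the only scaling and without HSD52_OE replicate 2.

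The other 11 pairs with a higher member and a lower host lay in 10 coding genes. They were INE1 in UBA1, the gene of a ubiquitin-activating enzyme, HM13-IT1 in HM13 (signal peptide peptidase), AL139287.1 in INTS11 (the endonuclease of the Integrator complex), AC009269.4 in LARP6 and NARF-IT1 in NARF. JPT1 held AC022211.1 and AC022211.3, and the rest were U62631.1 in CD22, AL596325.2 in UAP1, DGCR11 in DGCR2 and AL442125.1 in TMCO3. They were named after their values were seen. Their log2 differences from the host ran from 1.26 (AL139287.1) to 3.22 (AC009269.4), and most rest on few counts: HM13-IT1 had 4, 2 and 8 counts in control and 23, 24 and 16 in HSD52_OE libraries, while HM13 had 6304, 5526 and 5443 against 4610, 4594 and 4939. DGCR11 was better covered, with 48, 35 and 34 counts in control and 64, 64 and 69 in HSD52_OE libraries.

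AC008982.2 (ENSG00000269688; chr19:38844729-38845499, minus strand) rose inside a host that was not called. HNRNPL, the gene of a splicing regulator, had 4357, 4558 and 3885 counts in control and 4390, 4365 and 4403 in HSD52_OE libraries, whereas AC008982.2 had 2, 8 and 5 against 41, 38 and 26. The log2 difference was 2.74 ± 0.40 (edgeR adjusted p = 5.50e-07). AC008115.3 and ANKRD10-IT1 outran hosts that also rose: CDKN1B rose by 0.40 and ANKRD10 by 0.66 on the log2 scale, and the differences were 2.85 ± 0.39 and 1.84 ± 0.25. AL132989.1 had the smallest p of all member pairs, with a difference of 2.72 ± 0.34 from PSMA3 (edgeR adjusted p = 2.75e-08). It overlaps 1 gene besides its host, so this pair is uncertain. DLEU2L differed from EFCAB7 by 3.17 ± 0.41. AP000866.6 differed from MSANTD2 by 1.43 ± 0.31 (edgeR adjusted p = 0.000154, 9.87e-05 to 0.0904 over the alternatives) and AC135050.6 from KAT8 by 0.92 ± 0.24 (edgeR adjusted p = 0.00111, 0.000372 to 0.119), and both calls were lost with no filter beyond 1 count. GABPB1-IT1 differed from GABPB1 by 0.54 ± 0.22 (edgeR adjusted p = 0.0312), a call lost when any 1 library was left out, with adjusted p from 0.02003 to 0.4141 over all alternatives run.

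The 3 pairs in which the member was lower against the host were of another kind. AL356740.3 (ENSG00000269376; chr13:113009671-113010319, plus strand), in intron 11 of MCF2L, a gene for a guanine nucleotide exchange factor, had 54, 31 and 28 counts in control and 59, 63 and 49 in HSD52_OE libraries. These groups overlap. MCF2L rose from 699, 615 and 675 to 1885, 1918 and 1957 counts, and the log2 difference was -0.92 ± 0.28 (edgeR adjusted p = 0.00515). Without control replicate 1 it was -0.63 with an edgeR adjusted p of 0.102, over a range of 0.00491 to 0.203.

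AC011503.2 (ENSG00000269397; chr19:23927788-23929287, plus strand) had 14, 15 and 14 counts in control and 12, 13 and 13 in HSD52_OE libraries, while its zinc finger host ZNF726 went from 46, 69 and 54 to 92, 117 and 114. The log2 difference was -1.11 ± 0.43 (edgeR adjusted p = 0.0250). AC011503.2 overlaps 1 gene besides its host, so its counts are uncertain. BREA2 (ENSG00000181097), inside ZNF707, had 28, 34 and 31 counts in control and 30, 20 and 22 in HSD52_OE libraries, a difference of -0.72 ± 0.31 (edgeR adjusted p = 0.0462). Both calls were lost without control replicate 1 or 3 and without HSD52_OE replicate 2 or 3, and that of BREA2 also without control replicate 2. The adjusted p ranged from 0.0174 to 0.348 for AC011503.2 and from 0.0402 to 0.471 for BREA2 over all alternatives run.

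Members of 1 host did not always move alike. BICD1, the gene of an adaptor between dynein and its cargo, held 3 tested members. AC048344.4, near its start (chr12:32109076-32109602, plus strand), had 8, 5 and 5 counts in control and 35, 22 and 21 in HSD52_OE libraries. AC026356.2 (chr12:32352349-32354144, plus strand), in intron 8, had 9, 10 and 7 against 35, 27 and 52 counts. AC026356.1 (chr12:32339368-32340724, plus strand), in the same intron, had 48, 39 and 42 against 42, 46 and 52 counts, so that its groups overlapped. The log2 fold changes were 1.97 ± 0.41, 1.99 ± 0.36 and -0.01 ± 0.22, and the last changed sign under several alternatives. BICD1 itself had a log2 fold change of 0.30, a call lost without control replicate 1 and without HSD52_OE replicates 1 and 2 in turn. The differences from BICD1 were 1.66 ± 0.41, 1.69 ± 0.37 and -0.30 ± 0.27, and the call of AC048344.4 against BICD1 was lost with no filter beyond 1 count (edgeR adjusted p = 0.0576, range 0.000563 to 0.0576). Whether the 3 members differ from each other was not tested.

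Members were also set against their host by level. To compare levels between genes, counts were divided by exonic length, and a member's counts per kb were expressed as a percentage of its host's. In the 55 pairs called higher the median was 4.09% in control and 17.99% in HSD52_OE cells, and in the 45 pairs not called it was 48.5% and 52.4%. Control counts enter both this level and the change, so the 6 libraries were also summed. Under 10% of the host level by that sum, 26 of 33 members were higher against the host (78.8%), with a median of 1.70. From 10% to 50% the count was 18 of 35 (51.4%) with a median of 0.997, and from 50% it was 11 of 35 (31.4%) with a median of 0.54. These classes differ in depth, with median mean counts of 12.8, 18 and 28.8, and in how members passed the filter: 25 of 33, 18 of 35 and 11 of 35 reached 10 counts in every HSD52_OE but not in every control library. Passing in that way favours members that are higher in HSD52_OE cells, so the order of these shares gives no support to a relation with level.

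**Figure D4:**
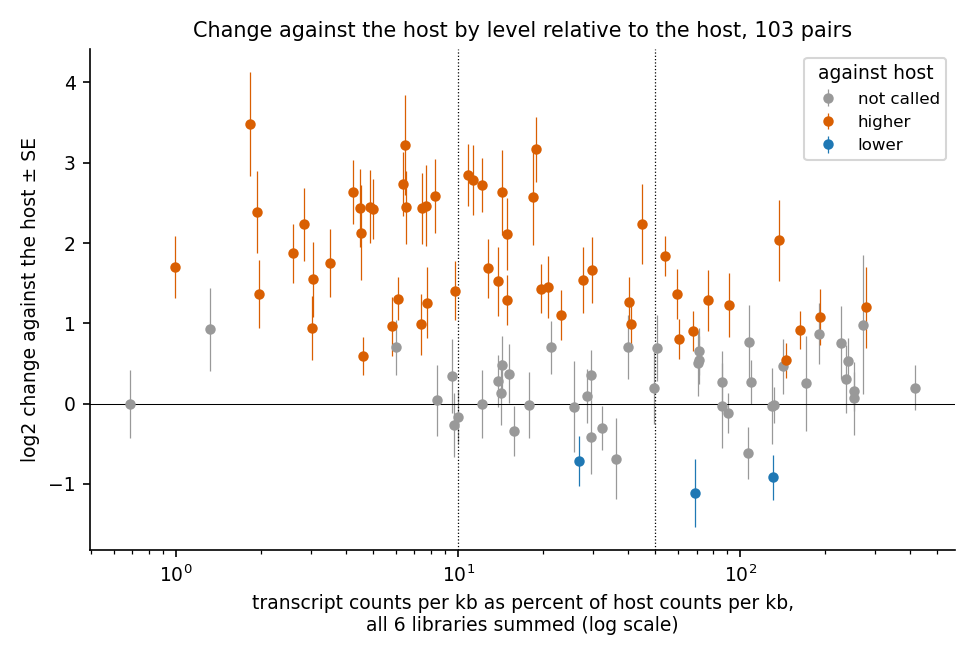
Log2 change of each member against its host with its SE (vertical axis) by the member's counts per kb as a percentage of the host's, summed over all 6 libraries (horizontal axis, log scale), in 103 pairs; dotted lines stand at 10% and 50%. 26 of 33 members to the left of the first dotted line are orange (higher), against 11 of 35 to the right of the second.

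ANKRD10-IT1 stood at 20.6% ± 6.51 of the level of ANKRD10 per kb in control and at 73.7% ± 0.736 in HSD52_OE cells (SD, n = 3). AC008982.2 stood at 1.62% ± 0.908 and 11.1% ± 2.53 of HNRNPL, and AC008115.3 at 2.33% ± 1.20 and 16.9% ± 2.34 of CDKN1B. At the other end, AC135050.6 was more abundant per kb than KAT8 in both groups, at 109.2% ± 16.8 and 205.4% ± 21.3. AL356740.3 went from 201.1% ± 66.4 to 106.0% ± 14.8 of MCF2L. A level above 100% means that the member's bases were covered more densely than the exons of the host.

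Other non-coding genes inside coding hosts were also mostly higher against their host. Of the 176 contained genes outside the 2 classes, 82 were higher against the host (46.6%) and 11 lower (6.25%), with a median of 0.76. By class, the count was 26 of 40 for TEC genes (median 1.098), 12 of 14 for small nucleolar RNA genes (1.39), which are released from host introns, and 7 of 20 for lincRNA genes (0.34). Processed pseudogenes inside hosts were higher in 13 of 60 and lower in 7, with a median of 0.01. Below 10% of the host level, 34 of 49 of these other genes were higher (69.4%), and from 50% 8 of 61 were (13.1%), with a median of -0.03 where the members had 0.54. The other genes include the 60 processed pseudogenes. Their classes of level also differ in depth, with median mean counts of 13, 18.7 and 37.3. How these genes passed the filter was not counted, so their shares give no support to a relation with level either. No difference between the members and the other contained genes was tested.

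**Figure D5:**
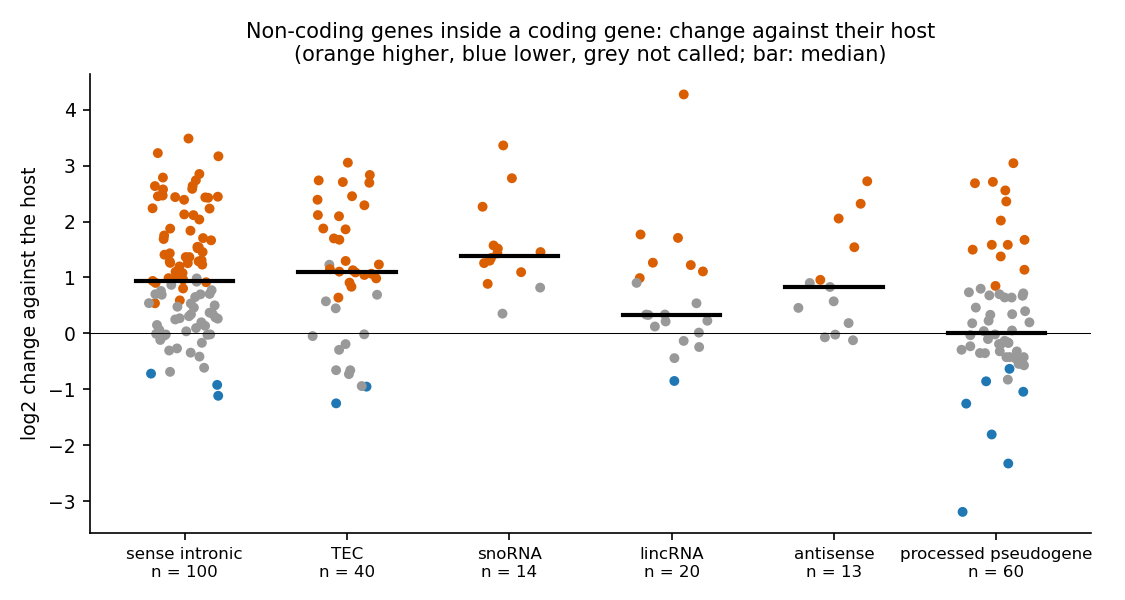
Log2 change against the host (vertical axis) of each non-coding gene contained in a coding gene, by annotated class (horizontal axis); orange is higher, blue lower and grey not called by edgeR, and the bar is the median. The median of the 100 sense intronic genes, 0.93, lies between those of lincRNA genes (0.34) and small nucleolar RNA genes (1.39), and that of processed pseudogenes is 0.01.

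Counts in all 3 libraries of 1 group and in none of the other were found for 24 members in HSD52_OE and 3 in control. Over the whole table more genes had a count in each HSD52_OE library (26359 to 26755) than in each control library (22855 to 23545). The share of all genes with such counts was not taken, so the 24 and 3 have no background here. The 3 members with the most counts each way are given here. AC026401.2, inside NDE1, a gene needed for spindle and dynein function, had 0 counts in control and 4, 9 and 9 in HSD52_OE libraries, at least 6.72-fold higher when a floor of 3 counts over the control group is used. AC138207.4 in RNF135, a ubiquitin ligase gene, had 5, 1 and 10 counts (at least 4.89-fold higher) and AC099811.5 in STAT5B, a transcription factor gene, had 6, 5 and 4 (at least 4.58-fold higher). Both hosts fell, with log2 fold changes of -0.51 for RNF135 and -0.53 for STAT5B. In the other direction, TCF7L1-IT1 had 5, 2 and 5 counts in control and 0 in HSD52_OE libraries (at least 4.36-fold lower), and its host TCF7L1, a transcription factor of the Wnt pathway, fell by 1.37 on the log2 scale. DHRSX-IT1 had 2, 3 and 2 control counts and AC016542.1, in the gene of the mitochondrial calcium uniporter MCU, had 4, 1 and 2, with 0 in HSD52_OE libraries (each at least 2.55-fold lower). None of these 6 passed the filter, so they were not tested, and the folds allow for counting error only.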

How the data were processed

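The deposited table held the authors' read counts for each gene, which are whole and not normalized, for 6 poly-A selected LN229 libraries. Per the submitters' processing notes, CASAVA, HISAT2 2.0.5, featureCounts 1.5.0-p3 and the hg38 build were used. The annotation release is not given in the sources used here, but all 58735 rows have the start, end, strand and biotype of GENCODE release 29. Deposited gene lengths, another measure in the table, were used for levels per kb. Members and gene lists were chosen with earlier results of these data known. 1 listed marker gene is not reported here.

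Genes were kept by filterByExpr (10 counts in 3 libraries, scaled to depth), scaled by TMM and tested with edgeR 4.0.16 (R 4.3.3, limma 3.58.1; 2-sided quasi-likelihood test, robust, group alone, Benjamini-Hochberg, threshold 0.05). Pairs of member and host were fitted as library, gene and gene by group. The tests were tried on simulated data first. CPM are given with the SD, fold changes with the SE.

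Named were members with groups apart and the smallest p (10 each way, 5 sense overlapping each way), the 6 most abundant, the 8 pairs with the smallest p each way, hosts with 3 or more tested members and up to 3 members at 0 in each group. Alternatives were RLE factors, library totals, other filters, DESeq2 1.42.0, limma-voom, limma on log2 ratios, a replicate block, other host rules, members overlapping no other gene, and each library left out.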

Additional observations from a re-analysis of the deposited data

How the results depend on the processing

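Library totals as the only scaling moved the median of all genes from 0.01 to 0.13 and their calls to 32.7% higher and 18% lower. With it the sense overlapping median was 0.41, and small changes turned positive: AC026356.1 0.12, GABPB1 0.095 and HNRNPL 0.040. With no filter beyond 1 count the medians were 1.04 (sense intronic), 0.77 (sense overlapping) and 0.23 (all genes), 86 of 602 sense intronic (14.3%) and 23 of 126 sense overlapping members (18.3%) rose against 13.3% of all genes, and 42 pairs were higher and 0 lower of 580 by edgeR (6 lower at an unadjusted p under 0.05), with 26 of the 58 called pairs shared. A filter of 1 CPM in 3 libraries left 35 sense intronic members and 31 pairs higher and turned AC026356.1 to 0.016. Among members that overlap no other gene, 1 sense intronic member fell, and 6 sense overlapping members rose and 1 fell. The last 2 settings covered fewer tested genes. Sense intronic members rose in 35 of 64 and 47 of 91, in place of 58 of 117. With the filter of 1 CPM, 54 pairs were tested in place of 103. Of sense overlapping members that overlap no other gene, 6 of 24 rose, in place of 12 of 38. Whether these shares differ was not tested.

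With 1 library left out in turn, the sense intronic median ranged from 0.83 to 0.95, the pair median from 0.94 to 1.08 and the number of pairs lower from 0 (without control replicate 1) to 4. AC026356.1 ranged down to -0.082 and turned to 0.081, 0.035 and 0.0046 without control replicate 1 and HSD52_OE replicates 1 and 2, and GABPB1 ranged down to -0.091 and turned to 0.036 and 0.031 without control replicate 2 and HSD52_OE replicate 1. AC092718.4 against CENPN, -0.02, ranged down to -0.17 and turned to 0.073, 0.047, 0.013 and 0.018 without control replicates 1 and 2 and HSD52_OE replicates 2 and 3. Of 957 values of named genes and pairs under these settings, 887 kept their direction and side of the threshold.

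The labels do not say that replicate numbers pair libraries, and same-numbered libraries deviated together only weakly (r = 0.038, 0.031 and 0.033), although each correlated best with its own number. With a replicate block, 57 sense intronic members rose and 2 fell, 12 and 3 sense overlapping members did, and 51 pairs were higher and 2 lower. Most members had too few counts for a test: 573 of 728 were not tested.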
